A study of Mus musculus with 4 samples.

Results

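The 38 genes described here act in meiotic prophase, in the synapsis and recombination of homologous chromosomes. They were taken by symbol from a list, out of 55335 annotated genes in the tables. The list was chosen with earlier results of these data known. The members were placed in 5 role groups: 11 of the synaptonemal complex and chromosome axis, 6 of strand break formation, 9 of strand invasion, 7 of crossover formation and 5 of meiotic entry and telomere attachment. The tables list 2 of them under an older name, *Six6os1* as *4930447C04Rik* and *Iho1* as *Ccdc36*. Oocyte RNA from C57BL/6 mice was amplified by Smart-Seq2 and sequenced, in 2 libraries labelled control and 2 labelled mutant. The control libraries carry the genotype label Control. The mutant libraries come from mice with a point mutation in *Ezh2*, at an alternative splice site of its exon 3. EZH2 is the histone H3 methyltransferase of a Polycomb repressive complex. The series names a long and a short form of the mutation, and the label does not say which one these oocytes carried. The sample descriptions add the tag MII, while age, the number of oocytes per library and the number of animals are not given. Whether each library came from another animal is not stated, so each p-value reflects the spread among these libraries, which may be technical.

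In meiotic prophase the SPO11 complex cuts DNA, recombinases such as DMC1 pair the cut ends with the homologous chromosome, and a protein zipper, the synaptonemal complex, holds the homologs together while crossovers form. In female mammals these steps are completed before the oocyte enters its long arrest, and the crossovers then hold the homologs together until the meiotic divisions. Transcripts of these genes in a grown oocyte are therefore measured after the steps that their proteins carry out.

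The libraries held between 25090032 and 26617816 counts. All 15 oocyte marker genes on the list, among them *Gdf9*, *Bmp15* and *Zp3*, were detected in every library, with a summed level of 15845 to 17599 CPM (counts relative to the scaled library total) in the controls and 15197 to 16277 CPM in the mutants. The 20 cumulus and granulosa markers summed to 74.9 and 55.4 CPM in controls 1 and 2 and to 401 and 47.9 CPM in mutants 1 and 2. *Cyp19a1* was the largest part in both controls (34.2 and 42.5 CPM) and was lower in the mutants (16.4 and 23.6 CPM). *Gja1* was at 10.9 and 0 CPM in the controls, against 99.3 and 7.96 CPM in the mutants. *Inhba* was at 8.98 and 0.198 CPM in the controls, against 86.7 and 1.92 CPM in the mutants. The sum thus understates how far mutant 1 stood apart in such genes. *Ereg* was at 0 in all 4 libraries. The 14 leukocyte markers summed to 4.27 and 5.75 CPM in the controls and to 15.0 and 159 CPM in mutants 1 and 2. *Ptprc* and *Coro1a* were at 0 in both controls. Bulk RNA cannot tell fewer cells of a type from less RNA per cell. How the results stand without mutant 1 or mutant 2 is given below. Each of those fits keeps the mutant library with the other raised marker sum, so it cannot show the part of other cells. That part was not tested. The level of *Ezh2* was 313 and 239 CPM in the controls and 176 and 223 CPM in the mutants and, as a total over all transcripts, does not check the labels.

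The oocytes held RNA of most prophase genes, at levels from 0 up to those of abundant transcripts, given in TPM (a level per transcript length, scaled to the library). Of the 38 members, 31 were detected in all 4 libraries and 4 had 0 counts in every library. The 4 were *Spo11*, which encodes the catalytic subunit of the break-forming complex, *Stra8*, a switch gene of meiotic entry, *Syce3*, of the central element of the synaptonemal complex, and *Spata22*, a partner of *Meiob* in strand invasion. A count of 0 allows up to 0.107 to 0.121 CPM in these libraries (3 counts, counting error only). Exons of *Spata22* share 1025 of their 1274 bases with *Gm49340* on the same strand. How shared reads were counted there is unknown, so this limit may not hold for *Spata22*. The RSEM counts of both genes were also 0 in every library. A mean level of at least 10 TPM was reached by 15 members. *Sycp2*, of the axial element, had the highest mean level, at 349 and 358 TPM in the controls and 315 and 456 TPM in the mutants. *Brca2*, which loads the recombinases onto DNA, was at 209 and 231 TPM in the controls and 225 and 257 TPM in the mutants. *Mei4*, of the break-forming machinery, was at 227 and 188 TPM in the controls and 127 and 202 TPM in the mutants. None of these 3 genes separated the groups in TPM. As the plot of levels shows, each role group except crossover formation held a member at 0 in all 4 libraries.

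**Figure D1:**
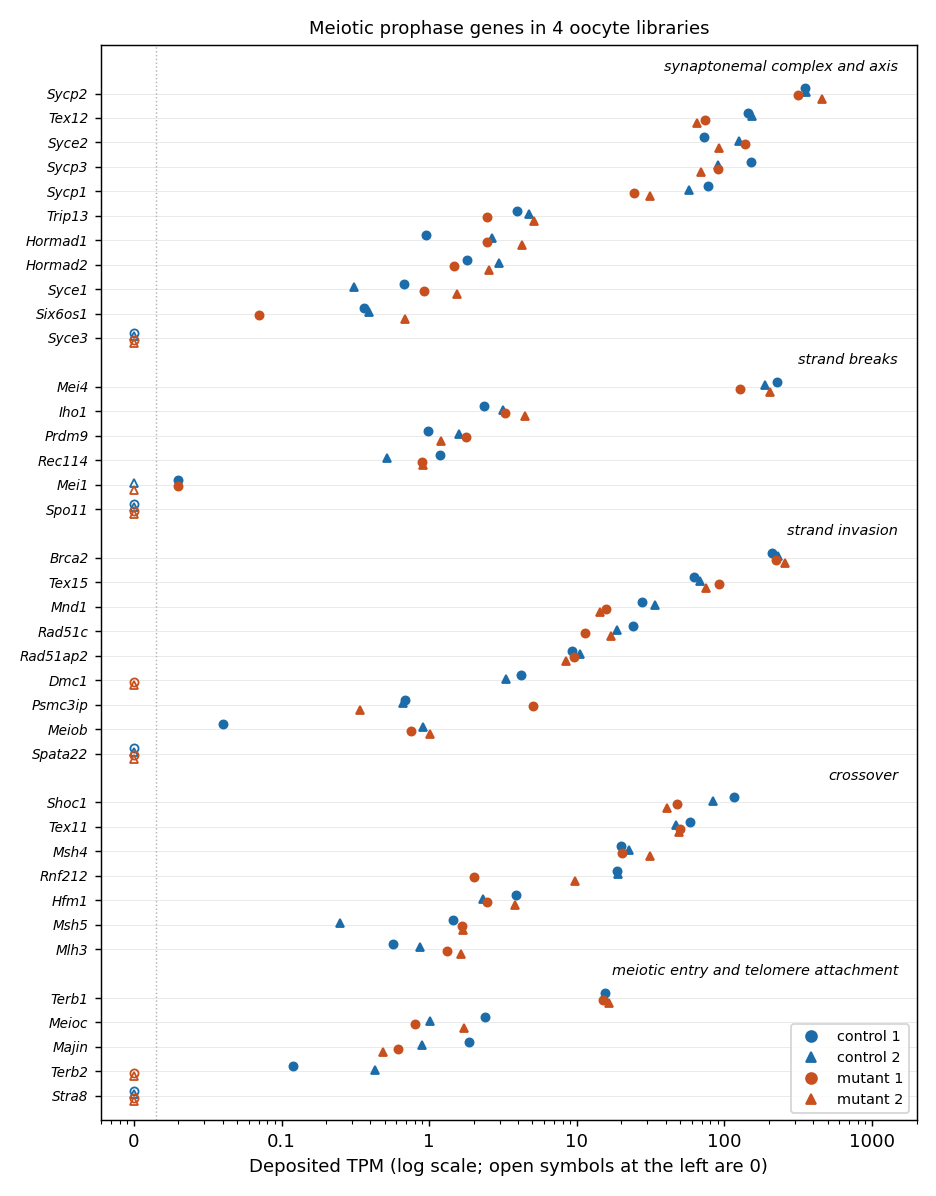
Deposited TPM of the 38 members on a log axis, grouped by role and ordered by mean level within the role, with 1 symbol per library and open symbols at the left for a TPM of 0. *Sycp2*, *Brca2* and *Mei4* lie at the right, *Dmc1* is at 0 in both mutants, and *Spo11*, *Stra8*, *Syce3* and *Spata22* are at 0 in all 4 libraries.

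The genotypes were compared to ask which of these transcripts differed in oocytes with the *Ezh2* splice site mutation. *Dmc1*, *Sycp1*, *Tex12* and *Shoc1* fell in the mutants, and no member rose. *Dmc1*, the meiosis-specific recombinase, was not detected in either mutant, and the other 3 fell 2.41-fold to 2.48-fold. Of the 38 members 32 had enough counts to be tested, of which 4 fell, 0 rose and 28 did not pass (quasi-likelihood test of edgeR, with p-values adjusted by Benjamini-Hochberg over all genes and a threshold of 0.05). That is 12.5% of the tested members, and over all 15493 tested genes 3.75% passed, 1.98% lower and 1.77% higher. As the list was chosen with earlier results known, this contrast is a description and not a test. For the count of 0 that rose, DESeq2 and limma also gave 0, and no member was higher at an unadjusted p under 0.05 in edgeR, against 8 that were lower; over all genes 23% had such a p in either direction. With the RSEM counts the same 4 members fell, of 30 tested, where 3.89% of all genes passed, 2.2% lower and 1.69% higher. With 1 control left out, none of the 4 passed, and neither did most other genes: 10 rose and 12 fell without control 1, and 13 rose and 14 fell without control 2. Without mutant 1, the library with the highest cumulus marker sum, *Mnd1* and *Sycp3* passed as well as *Dmc1*, *Sycp1*, *Tex12* and *Shoc1*. That fit has 1 mutant library left and called more genes over all than the main fit. The members' median log2 fold change was -0.07 there, against -0.01 for all tested genes. Without mutant 2, the library with the highest leukocyte marker sum, 3 fell.

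*Dmc1* (chromosome 15, 79561497 to 79605109, minus strand, mm10) had 157 counts in control 1, 116 in control 2 and 0 in both mutants. This was 6.32 and 4.60 CPM in the controls, with a mean of 5.46 ± 1.22 CPM (SD, n = 2). The 0 counts bound the level of the mutant group at 3 counts over its 2 libraries, or 0.0548 CPM. For a single library the bound was 0.107 CPM in mutant 1 and 0.113 CPM in mutant 2. The group level was at least 99.8-fold below the control mean (edgeR adjusted p = 0.00896). That fold covers counting error in the mutants and leaves out the spread of the controls. The RSEM counts gave the same picture, with 146 and 107 in the controls and 0 in the mutants. In both controls the mean transcript length was 2219 bases, the length of the full coding transcript with 14 exons and the longest of 5 annotated transcripts. None of the 12 other tested genes within 250 kb of *Dmc1* passed the threshold.

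*Sycp1* (chromosome 3, 102818499 to 102936100, minus strand), whose protein forms the transverse filaments of the synaptonemal complex, was at 84.2 CPM in control 1, 60.0 in control 2, 26.2 in mutant 1 and 32.0 in mutant 2. The groups did not overlap, and the mutant libraries were closer to each other than the controls were. Its level fell 2.48-fold, from 72.1 ± 17.1 to 29.1 ± 4.10 CPM (log2 fold change -1.31, SE 0.227, edgeR adjusted p = 0.0373). *Tex12* (chromosome 9, 50556819 to 50561325, minus strand), of the central element, was at 71.3 and 69.3 CPM in the controls, against 31.0 and 27.3 CPM in the mutants. Both pairs of replicates were close, and the gap between the groups was far wider than either. *Tex12* fell 2.41-fold, from 70.3 ± 1.43 to 29.2 ± 2.56 CPM (log2 fold change -1.27, SE 0.169, edgeR adjusted p = 0.0185). None of the 4 tested neighbours of *Sycp1* and none of the 10 tested neighbours of *Tex12* within 250 kb passed.

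*Shoc1* (chromosome 4, 59043753 to 59138983, minus strand) encodes a member of the ZMM proteins, which stabilise recombination intermediates on the way to a crossover. It was at 193 and 130 CPM in the controls, against 69.8 and 63.8 CPM in the mutants. Control 1 was well above control 2, the mutants were close to each other, and the groups did not overlap. *Shoc1* fell 2.42-fold, from 162 ± 44.5 to 66.8 ± 4.29 CPM (log2 fold change -1.28, SE 0.215, edgeR adjusted p = 0.0349). Without mutant 2 its adjusted p was 0.0525 in edgeR. Of its 7 tested neighbours within 250 kb 1 passed, *Ugcg*, which rose.

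**Figure D2:**
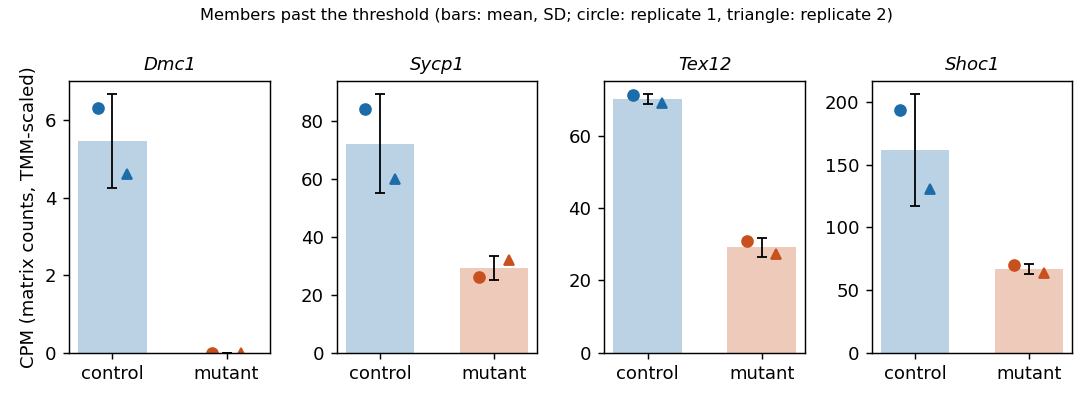
CPM in each library of the 4 members that passed the threshold; bars are group means, error bars the SD of 2 libraries, circles replicate 1 and triangles replicate 2. Controls 1 and 2 lie above both mutants for each gene, and *Dmc1* is at 0 in both mutants.

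Promoters are shown for 3 of the 4 members that fell, *Dmc1*, *Sycp1* and *Tex12*, to set the sequence before each gene side by side; that of *Shoc1* was not used here. Each run reads 5′ to 3′ on the gene's strand and ends at the base before the annotated gene, taken from RefSeq windows of GRCm38.p6. Capitals mark 2 motifs searched on both strands, GGCGGGAA, a form of the E2F site, and CACGTG, an E-box. The STRA8-MEIOSIN motif, CNCCTCAG, was searched as well. The *Dmc1* run is chr15:79605110-79605359, the *Sycp1* run chr3:102936101-102936350 and the *Tex12* run chr9:50561326-50561518, all on the minus strand.
Dmc1: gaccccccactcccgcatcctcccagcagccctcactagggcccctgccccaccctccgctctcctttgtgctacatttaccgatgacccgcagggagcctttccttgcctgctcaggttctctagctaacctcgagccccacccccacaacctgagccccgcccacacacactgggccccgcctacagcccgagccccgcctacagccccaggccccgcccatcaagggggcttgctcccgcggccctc
Sycp1: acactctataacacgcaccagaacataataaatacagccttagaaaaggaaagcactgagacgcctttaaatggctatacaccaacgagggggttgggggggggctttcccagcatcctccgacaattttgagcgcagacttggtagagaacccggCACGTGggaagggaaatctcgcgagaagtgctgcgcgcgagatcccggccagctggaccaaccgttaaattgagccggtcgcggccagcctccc
Tex12: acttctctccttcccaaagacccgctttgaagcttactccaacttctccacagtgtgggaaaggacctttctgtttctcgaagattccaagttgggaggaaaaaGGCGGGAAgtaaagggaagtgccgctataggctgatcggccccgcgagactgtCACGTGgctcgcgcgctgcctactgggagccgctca
The *Dmc1* run holds none of the 3 motifs, the *Sycp1* run 1 E-box, and the *Tex12* run 1 E2F-type site and 1 E-box. The motifs were counted in the 250 bases before each RefSeq start, for which 31 members gave 37 windows. The E2F-type site was in 8 of the 37 windows and in 1.86% of all 32851 windows. By gene it was in 7 of the 31 members, *Hormad1*, *Msh5*, *Prdm9*, *Rad51ap2*, *Rnf212*, *Syce2* and *Tex12*. The E-box was in 8 of the 37 and in 6.02% of all. Its 7 genes were *Hormad1*, *Rec114*, *Six6os1*, *Syce2*, *Sycp1*, *Sycp3* and *Tex12*, of which only *Sycp1* and *Tex12* passed the test. For both motifs, overlapping windows of *Hormad1* that hold the same sites were counted separately. The STRA8-MEIOSIN motif was in 5 of the 37 and in 6.42% of all. Base composition differed too, with a median GC content of 60.0% in the members' windows and 52.4% in all windows. A match describes the letters only.

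In the role of synaptonemal complex and axis, 2 of the 4 members that fell were found. Of the 11 members, 10 were tested, of which *Sycp1* and *Tex12* fell and none rose, and their median log2 fold change was -0.37, against 0.05 for all tested genes. The groups did not overlap for 4 of the 10, where 54.6% of all tested genes did not overlap. *Sycp2* was at 450.3 and 369.6 CPM in the controls, against 358 and 460.1 CPM in the mutants. These ranges overlapped, with a log2 fold change of -0.00 (SE 0.186). *Sycp3*, the other axial element gene, was at 50.5 and 27.4 CPM in the controls, against 24.7 and 20.3 CPM in the mutants. Control 1 stood apart, and the difference did not pass (log2 fold change -0.79, SE 0.315, edgeR adjusted p = 0.200). *Sycp3* passed only in the edgeR fit without mutant 1, which rests on 1 mutant library and called more genes over all. In TPM its groups overlapped, with 89.8 in control 2 and 90.1 in mutant 1. Exons of *Sycp3* and of *Chpt1*, on the opposite strand, share 660 bases, so reads there cannot be told apart without strand. *Syce2*, a central element gene, was at 37.5 and 50.8 CPM in the controls, against 54.8 and 49.2 CPM in the mutants. *Hormad1* and *Hormad2*, which mark unsynapsed axes, *Trip13*, which removes them, *Syce1* and *Six6os1* lay between 0.0710 and 5.28 CPM in every library.

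No gene of strand break formation passed the test. Of the 6 members 4 were tested, and 0 passed in either direction in edgeR, DESeq2 or limma, with 0 at an unadjusted p under 0.05 in edgeR and 1 in DESeq2. *Mei4* was at 291 and 228 CPM in the controls, against 137 and 216 CPM in the mutants. Mutant 1 was the low library, and mutant 2 lay just under control 2 (log2 fold change -0.56, SE 0.246, edgeR adjusted p = 0.239). *Iho1*, which places the break machinery on the axis, was at 4.83 and 6.19 CPM in the controls, against 5.54 and 7.81 CPM in the mutants (log2 fold change 0.28, SE 0.360). *Prdm9*, the histone methyltransferase that sets the sites of breaks, had 25 and 20 counts in the controls, against 30 and 23 counts in the mutants. *Rec114*, a partner of *Mei4*, had 10 to 21 counts, and *Mei1* had 1 count each in control 1 and mutant 1.

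Among the genes of strand invasion *Dmc1* fell and the others stayed short of the threshold. Of the 9 members 8 were tested, 1 fell and 0 rose. *Mnd1*, which with *Psmc3ip* helps the recombinases to invade the homolog, was at 13.2 and 14.9 CPM in the controls, against 7.07 and 6.46 CPM in the mutants. The groups were well separated, and the test came close to the threshold (log2 fold change -1.06, SE 0.270, edgeR adjusted p = 0.0801). DESeq2, which called more genes over all, placed *Mnd1* past it (adjusted p = 0.0110). So did edgeR without mutant 1, in a fit with 1 mutant library that also called more genes over all. *Rad51c*, a gene of homologous recombination repair, was at 36.0 and 26.8 CPM in the controls, against 13.7 and 22.2 CPM in the mutants (log2 fold change -0.81, SE 0.297, edgeR adjusted p = 0.173). *Brca2* was at 742 and 696 CPM in the controls, against 625 and 762 CPM in the mutants, and *Tex15*, a germ cell gene needed for recombinase loading, at 194 and 177 CPM and at 224 and 217 CPM. Neither passed (log2 fold changes -0.05, SE 0.162, and 0.25, SE 0.139). *Rad51ap2* lay between 15.9 and 23.1 CPM, with both mutants below both controls, and *Meiob*, a single-strand binding protein gene, had 1 count in control 1 and 27 to 30 counts in the other libraries.

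*Psmc3ip* showed how far a value can rest on the counting. In the matrix it had 337 and 310 counts in the controls, against 376 and 333 counts in the mutants. The RSEM tables gave it 8 and 8 in the controls, against 52 and 4 in the mutants. Its exons share 385 bases with *Mlx* on the opposite strand, which had 2758 to 3076 counts. *Sycp3* went the other way, with RSEM counts summing to 1.80 times the matrix counts, while its neighbour *Chpt1* had 624 to 1376 matrix counts against 63.1 to 177 in RSEM. Over the other 30 members with at least 40 counts in all, RSEM gave 0.375 to 0.976 of the matrix count. For the 4 members that fell the share was 0.6997 for *Sycp1*, 0.927 for *Dmc1*, 0.941 for *Tex12* and 0.948 for *Shoc1*.

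**Figure D3:**
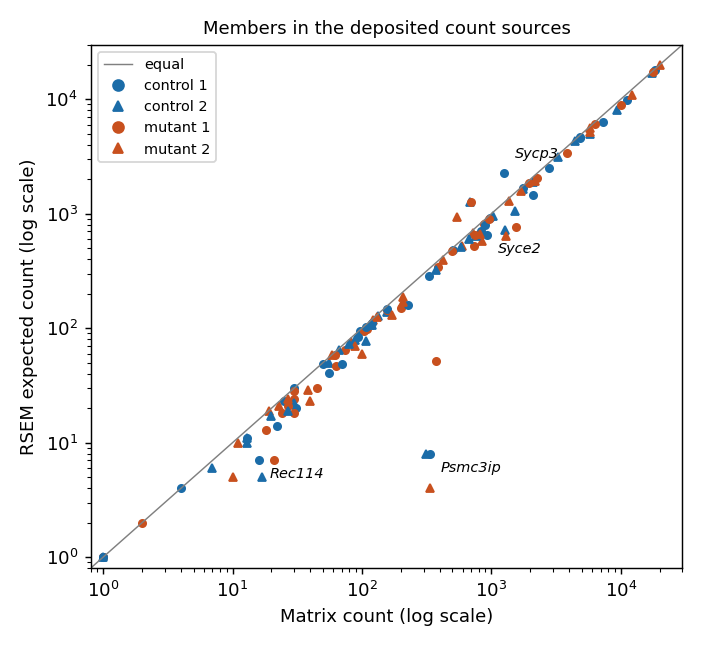
RSEM expected count against matrix count for each member and library with a value above 0 in both, on log axes, with the line of equality. *Psmc3ip* lies far below the line and *Sycp3* above it, while most members lie just under it.

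In the crossover group *Shoc1* fell and its partners did not pass. All 7 members were tested, 1 fell and 0 rose, with a median log2 fold change of -0.27. *Tex11*, an X-linked gene of the same protein class, was at 112 and 83.2 CPM in the controls, against 79.7 and 81.9 CPM in the mutants. Control 1 was the only library apart (log2 fold change -0.27, SE 0.184, edgeR adjusted p = 0.427). *Msh4* and *Msh5* encode the partners of a clamp on recombination intermediates. *Msh4* lay between 34.1 and 51.6 CPM with overlapping groups, and *Msh5* had 13 to 40 counts. *Mlh3*, which marks crossover sites, had more counts in both mutants, 109 and 131 against 50 and 66 in the controls, and did not pass (edgeR adjusted p = 0.248). *Hfm1*, a helicase gene, had 104 to 227 counts with overlapping groups. *Rnf212*, which selects sites for crossovers, had 108 and 88 counts in the controls, against 27 and 88 counts in the mutants.

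The genes of meiotic entry and telomere attachment were mostly low, and none passed. Of the 5 members 3 were tested, with 0 past the threshold in edgeR, DESeq2 or limma and 1, *Majin*, at an unadjusted p under 0.05 in edgeR. *Terb1*, which with *Terb2* and *Majin* tethers telomeres to the nuclear envelope, was at 33.2 and 30.1 CPM in the controls, against 26.8 and 30.5 CPM in the mutants (log2 fold change -0.15, SE 0.192). *Majin* had 56 and 27 counts in the controls, against 18 and 11 counts in the mutants (log2 fold change -1.65, SE 0.681, edgeR adjusted p = 0.214). *Meioc*, which prolongs the prophase programme, had 94 and 79 counts in the controls, against 62 and 59 in the mutants (log2 fold change -0.65, SE 0.420, edgeR adjusted p = 0.411). *Terb2* had 4 and 1 counts in the controls and 0 in both mutants, too few to test.

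**Figure D4:**
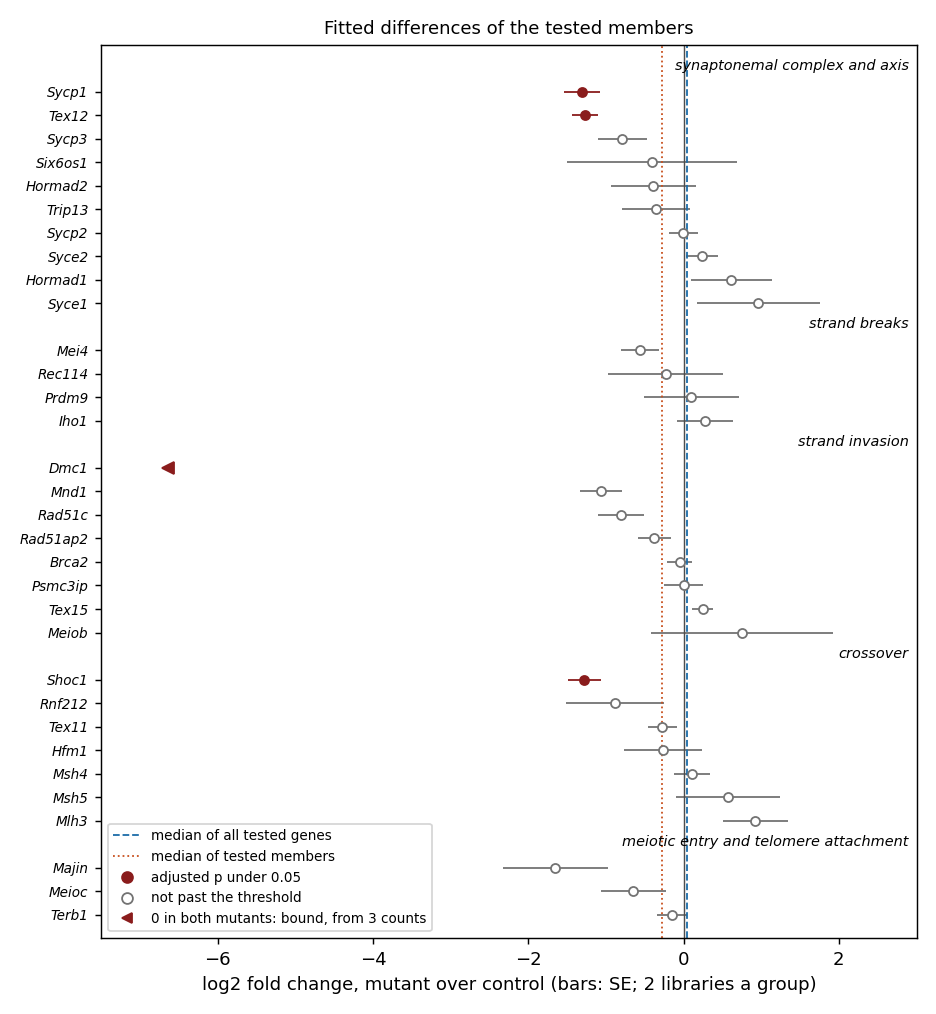
Log2 fold change of the 32 tested members by role, mutant over control, with its SE; filled symbols passed the threshold and the arrow marks the bound for *Dmc1*. The 4 filled symbols lie left of 0, and the median of the tested members (-0.27, dotted) lies left of that of all tested genes (0.05, dashed).

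Over the 32 tested members the median log2 fold change was -0.27, and 22 were negative and 10 positive; over all tested genes the median was 0.05 and 46.7% were negative. The groups did not overlap for 16 of the 32 members, or 50%, against 54.6% of all tested genes. Lower without overlap were 13 of the 32 members, against 25.7% of all tested genes. The median was -0.07 without mutant 1 and between -0.30 and -0.24 without each of the other libraries. Summed over the 38 members, TPM came to 1612 for control 1, 1548 for control 2, 1283 for mutant 1 and 1468 for mutant 2. Summed CPM came to 2428 for control 1, 2081 for control 2, 1771 for mutant 1 and 2112 for mutant 2. Mutant 2 thus lay above control 2 in CPM, and the groups overlapped in that measure.

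A mean transcript length is given per gene, weighted by the share of each transcript. If no other transcript is present, this fixes the shares of 2 annotated transcripts. For *Shoc1* they are a coding transcript of 4664 bases with 28 exons and a retained-intron transcript of 2338 bases with 10 exons. The short one took 93.7% and 91.6% of the *Shoc1* TPM in the controls, against 88.3% and 86.0% in the mutants. It was thus at 109 and 76.3 TPM in the controls and 41.9 and 35.1 TPM in the mutants, a mean 2.40 times higher in the controls. The coding transcript was at 7.33 and 6.98 TPM in the controls and 5.54 and 5.70 TPM in the mutants, a mean 1.27 times higher in the controls. In this split most of the *Shoc1* difference in TPM lay in the retained-intron transcript. These shares rest on how RSEM assigned reads and were not tested. *Tex12* has coding transcripts of 1003 and 895 bases. The longer was at 69.8 and 74.4 TPM in the controls and 44.0 and 35.1 TPM in the mutants, and the shorter at 74.8 and 78.8 TPM and 30.3 and 29.7 TPM. Both *Tex12* transcripts were lower in both mutants.

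**Figure D5:**
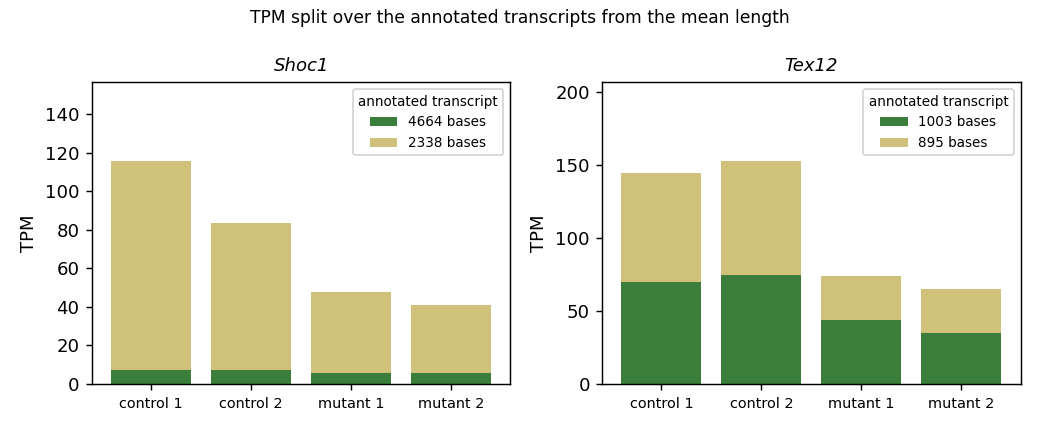
TPM of *Shoc1* and *Tex12* in each library, split over their annotated transcripts from the deposited mean length. The 2338-base transcript makes up most of the *Shoc1* bar in each library, and both parts of the *Tex12* bar are lower in the mutants.

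For *Sycp1* and *Sycp2* the deposited lengths also bound the share of TPM, which is a share of molecules and not of reads, in the full transcripts. The full coding transcripts of *Sycp1*, 3437 and 3189 bases with 33 exons each, could hold only 24.7% to 28.7% of its TPM in control 1, 27.0% to 31.2% in control 2, 32.1% to 36.7% in mutant 1 and 27.9% to 32.2% in mutant 2. The rest went to transcripts of 608 and 665 bases. The full *Sycp2* transcript, 5717 bases with 44 exons, could hold at most 19.9% to 26.8% of its TPM. These bounds come from the lengths alone and rest on how RSEM assigned reads. *Rnf212* was at 18.6 and 18.9 TPM in the controls and 2.02 and 9.73 TPM in the mutants, a wider gap than in its counts. Its mean length was 595 and 539 bases in the controls and 924 and 747 bases in the mutants.

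Of 63 listed genes of homologous recombination, checkpoint and chromosome movement 61 were matched and 58 tested. *Rad1* fell and none rose, 1.72% lower against the background of 1.98%. In edgeR 2 were higher and 7 lower at an unadjusted p under 0.05. Over all tested genes 23% had such a p in either direction. DESeq2 gave 1 that rose and 5 that fell, where over all genes 1017 rose and 976 fell. The groups did not overlap for 29 of the 58, or 50%, against 54.6% of all tested genes. *Rad1*, of the 9-1-1 checkpoint clamp, was at 63.8 and 57.9 CPM in the controls, against 31.2 and 31.3 CPM in the mutants (log2 fold change -0.96, SE 0.167, edgeR adjusted p = 0.0376). *Rad1* did not pass in edgeR without control 1 (adjusted p = 0.291), control 2 (0.241) or mutant 2 (0.0629), nor without scaling (0.0559). The most abundant were *Sfr1*, a gene of recombination repair, with a log2 fold change of -0.17 (SE 0.151), and *Skp1a*, of SCF ubiquitin ligases, with -0.56 (SE 0.150, edgeR adjusted p = 0.0865). The median over the 58 was -0.07.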

How the data were processed

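RNA from mouse oocytes was measured in 2 control and 2 mutant libraries, grouped by their titles. The deposited files were 1 table of whole counts over all libraries and, per library, tables whose headers are those of RSEM gene results: expected counts, TPM, FPKM (not tested) and transcript lengths in bases. STAR, RSEM, cutadapt 1.16 and the build mm10 are named in the submitters' processing notes; the counter behind the matrix (not given in the sources used here) and any use of strand are unknown. Totals were 25090032 to 26617816 counts per library. Positions, exons and transcript lengths came from GENCODE M21 (54587 of 55335 IDs matched with version). Older names were matched through RefSeq synonyms.

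The main test, on the matrix, was that of edgeR 4.0.16 under R 4.3.3 (TMM, filterByExpr, quasi-likelihood, genotype as the only term, Benjamini-Hochberg, 15493 genes, 2 residual degrees of freedom). CPM are on TMM-scaled sizes of the tested genes. Counts were simulated for this comparison (14994 genes tested) with the same spread for every gene, a coefficient of variation of 0.353. The recovered share was 4% for 2-fold changes, 40% for 4-fold, 90% for 8-fold and 94% for 16-fold ones. There was 1 call among unchanged genes. Alternatives were DESeq2 1.42.0, limma 3.58.1, other scalings and filters, a replicate block, rounded RSEM expected counts and each library left out. Members given in full were those past the threshold, those at an unadjusted p under 0.05 and the 2 with the highest TPM per role; *Syce2*, *Msh4*, *Mlh3*, *Rnf212* and *Psmc3ip* were singled out after their values were seen. The members and lists were chosen with earlier results of these data known. Amplified reads are not independent molecules, so limits from counts cover counting error only.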

Additional observations from a re-analysis of the deposited data

How the results depend on the processing

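The count of members that fell was 3 to 5 and that of members that rose 0 under the RSEM counts, other scalings, filters and tools and the replicate block; *Dmc1* was under the filter of 10 CPM. With a library left out 0 to 6 members fell, 0 without either control, 3 without mutant 2 and 6 without mutant 1, when *Mnd1* and *Sycp3* also passed. The median over members was -0.30 to -0.0699 with a library left out. Over all genes 10 to 962 rose and 12 to 726 fell with a library left out; 1017 rose and 976 fell in DESeq2, 749 and 573 without a filter, and 197 fell without scaling. Of the other prophase genes 1 rose in DESeq2 and 1 among genes of at least 10 CPM, 5 fell in DESeq2, 0 fell without scaling, and 0 to 1 fell with a library left out, and *Rad1* passed in the fit without mutant 1 but in none of the other 3. The log2 fold change of *Sycp2* turned positive with the RSEM counts (0.0299), without scaling (0.0880) and at 10 CPM (0.0395), and ranged from -0.205 to 0.15 with a library left out. That of *Brca2* turned positive without scaling (0.0371) and ranged from -0.211 to 0.0651 with a library left out, and that of *Iho1* ranged from -0.00233 to 0.487. The other named genes kept their direction. With the replicate number as a block 730 genes rose and 483 fell, and the same 4 members fell; the labels do not say what a shared number marks, and the deviations of same-numbered libraries correlated across genes with r = 0.18 (15493 genes, which are not independent). In the simulated counts, which gave every gene the same spread, 4% of 2-fold changes were recovered at 2 libraries a group. Genes with less spread than that can pass at such sizes. *Tex12*, *Shoc1* and *Sycp1* passed at 2.41-fold, 2.42-fold and 2.48-fold, with a wider spread between controls for *Shoc1* and *Sycp1* than for *Tex12*. The cause of these shifts was not tested.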
